A study of Homo sapiens with 10 samples.

Results

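The genes described here are 10 regulators and products of the pigment epithelium, chosen by name: the transcription factors MITF, OTX2, PAX6 and SOX9, the melanosome genes PMEL, TYR, TYRP1 and DCT, the related membrane glycoprotein GPNMB, and the chloride channel BEST1. Each has 1 row among the 22626 rows of the deposited read-count table, and 8 of the 10 passed the filter on low counts that left 14936 rows for testing. RNA came from ARPE-19, an established human line of retinal pigment epithelial (RPE) cells grown in medium with fetal bovine serum. For 48 h, 5 control samples (MG) received 5.5 mM D-glucose with 32 mM mannitol, a sugar alcohol that balances the osmotic load, and 5 high-glucose samples (HG) received 37.5 mM D-glucose. Glucose and mannitol thus change together between the groups, and their effects cannot be told apart. Total counts were between 33039260 and 45864176 in the MG libraries and between 32448991 and 44400714 in the HG libraries. MG libraries are named by replicate, and HG libraries by deposited column (HG_1 to HG_5), because the labels tie those columns to a group and not to a sample. The labels do not say that replicates were separate cultures, so p-values measure the spread between these samples.

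In the embryonic eye, OTX2 and MITF direct the optic cup toward pigment epithelium, PAX6 acts with them at this stage, and SOX9 later drives RPE genes together with OTX2 and MITF. MITF binds a short DNA element, the M-box, in front of the genes of melanin synthesis. In the melanosome, PMEL forms the fibrils on which pigment is laid down, tyrosinase (TYR) starts melanin synthesis, and TYRP1 and DCT act on later steps. ARPE-19 is known for little pigment unless it is matured for a long time in culture.

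The label of an RPE line was compared with RPE markers. Of 10 such markers, KRT8 was the most abundant, at a mean of 782.7 FPKM (reads divided by transcript length and library size) over the 10 libraries, and OTX2 and MITF were also present. RPE65, the isomerase of the visual cycle, was at 0 counts in 9 libraries and at 6 counts in MG2, so that this defining marker was all but absent. Summed over these 10 markers, FPKM was between 1543 and 1921 in the MG libraries and between 987.1 and 1295 in the HG libraries, a sum that the keratins dominate. Of the 7 melanocyte markers, KIT and FOXD3 were at 0 in every library and SOX10 held at most 1 count. MC1R, the most abundant of them, had a mean of 2.59 FPKM. The glucose-induced genes TXNIP and ARRDC4 served as a check of the labels. TXNIP was at 0.305 ± 0.0664 FPKM in MG and 2.80 ± 0.914 FPKM in HG (SD, n = 5 each), and ARRDC4 at 0.743 ± 0.107 and 1.25 ± 0.185 FPKM, with no overlap between the groups in either gene.

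The libraries MG2 and HG_1 stood apart from the rest. On the second principal component of log2 CPM (counts scaled to library size), which held 14.9% of the variance, they scored 43.9 and 44.9, while the other 8 libraries lay between -28.6 and 13.8. The log2 fold changes of the 8 tested genes without this pair are drawn in the plot of log2 fold changes by gene. Libraries MG1 and MG4 differed from the others in BEST1, and the alternative without them was added after seeing the data.

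The 10 genes fell into 3 tiers of level. GPNMB was the most abundant, with a mean of 495.3 FPKM over the 10 libraries, rank 113 when set among the mean FPKM of the 14936 tested rows. OTX2, SOX9 and PAX6 had means of 32.7, 30.3 and 25.2 FPKM and MITF of 10.7 FPKM. The melanosome genes were far lower, at 1.31 FPKM for PMEL, 0.497 for TYRP1, 0.075 for TYR and 0.012 for DCT. BEST1 had a mean of 18.5 FPKM that rests on 2 libraries, as described below. PMEL lay above TYRP1 without overlap in MG, but in HG they overlapped, with PMEL at 0.704 FPKM in HG_4 and TYRP1 at 0.712 FPKM in HG_3. The length implied by the deposited values (counts divided by FPKM and by total counts) was unusual for both of these, 2.75 kb for PMEL against 2.04 to 2.32 kb in the other libraries and 2.15 kb for TYRP1 against 2.58 to 3.19 kb. In MG the difference between TYR and DCT (0.127 ± 0.135 and 0.0192 ± 0.0277 FPKM) was within their spread, and OTX2 and SOX9 in MG (33.9 ± 2.16 and 33.7 ± 2.64 FPKM) and SOX9 and PAX6 in HG (26.8 ± 2.32 and 26.3 ± 2.51 FPKM) did not differ beyond their spread (SD, n = 5).

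**Figure D1:**
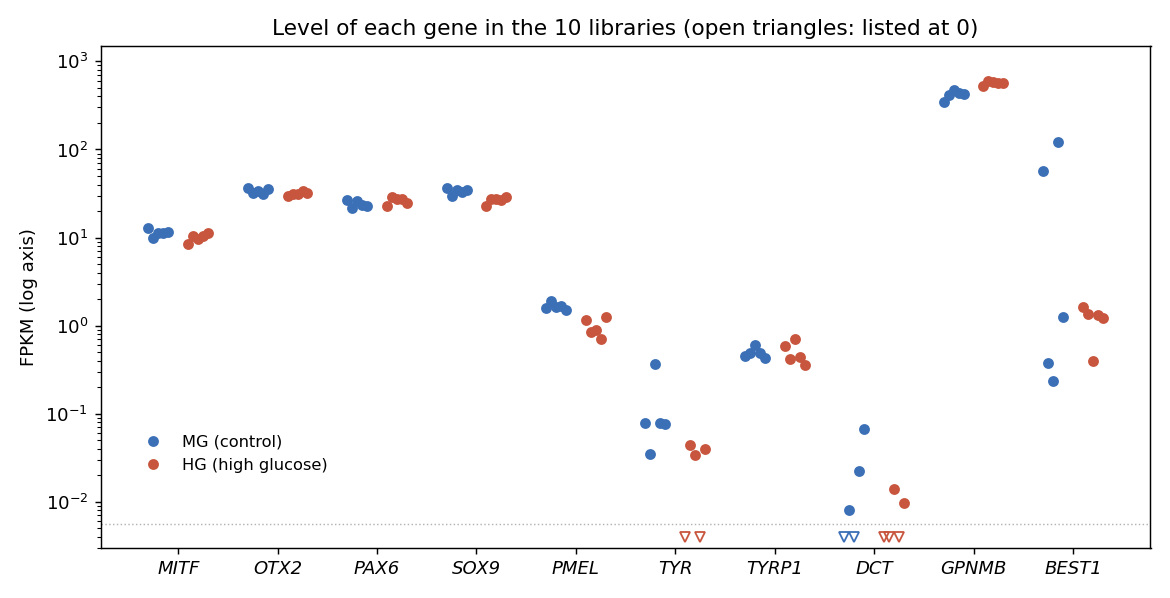
FPKM on a log axis of each gene (x axis) in the 5 MG libraries (blue) and the 5 HG libraries (red), with open triangles for libraries listed at 0. GPNMB lies highest, the transcription factors between 8.46 and 36.7 FPKM, and the melanosome genes below 2 FPKM; BEST1 reaches 57.2 and 120.3 FPKM in MG1 and MG4.

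The M-box of the pigment genes is shown because the same letters precede the most abundant of the 10 genes and the 3 least abundant. RefSeq promoter windows (GRCh38.p14, 250 bases before to 50 after the start) were found for 7 of the 10 genes, 19 entries in all, with none for PMEL, SOX9 and BEST1. The letters CATGTG, read on either strand as CATGTG or CACATG, occur in 11.1% of 35116 windows of 300 bases, and the longer TCATGTG, which contains them, in 2.92%. The windows of TYR, TYRP1 and GPNMB and 1 of the 2 DCT windows hold CATGTG at 2 places each, and it also occurs in 1 of 2 OTX2 windows and 2 of 9 PAX6 windows. The other DCT window has none. TCATGTG was found at 2 places in the GPNMB window and in 1 DCT window, and at 1 place each in those of TYR and TYRP1. The OTX2 and PAX6 windows do not hold this longer form. Those of the pigment genes and GPNMB are given here 5′ to 3′ on the strand of the gene, with CATGTG or CACATG in capitals, for GPNMB (chr7:23246525-23246824, plus strand), TYR (chr11:89177625-89177924, plus strand), TYRP1 (chr9:12693135-12693434, plus strand) and DCT (chr13:94479633-94479932, minus strand).
GPNMB: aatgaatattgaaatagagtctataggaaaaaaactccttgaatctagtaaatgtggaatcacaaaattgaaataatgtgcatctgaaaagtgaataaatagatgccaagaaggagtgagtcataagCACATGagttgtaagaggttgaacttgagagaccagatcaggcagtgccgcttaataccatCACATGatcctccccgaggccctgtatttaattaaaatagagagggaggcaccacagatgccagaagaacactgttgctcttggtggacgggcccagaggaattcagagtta
TYR: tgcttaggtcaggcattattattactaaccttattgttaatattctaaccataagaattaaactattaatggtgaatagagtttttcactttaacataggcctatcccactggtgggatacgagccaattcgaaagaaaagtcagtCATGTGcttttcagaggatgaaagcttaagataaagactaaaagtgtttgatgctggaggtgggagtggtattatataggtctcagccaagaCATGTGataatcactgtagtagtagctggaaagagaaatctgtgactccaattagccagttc
TYRP1: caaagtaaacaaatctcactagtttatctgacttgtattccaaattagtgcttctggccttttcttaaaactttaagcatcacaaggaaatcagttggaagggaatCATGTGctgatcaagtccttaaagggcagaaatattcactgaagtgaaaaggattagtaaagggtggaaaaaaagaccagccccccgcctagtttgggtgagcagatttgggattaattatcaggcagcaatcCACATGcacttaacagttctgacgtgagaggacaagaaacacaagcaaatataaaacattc
DCT: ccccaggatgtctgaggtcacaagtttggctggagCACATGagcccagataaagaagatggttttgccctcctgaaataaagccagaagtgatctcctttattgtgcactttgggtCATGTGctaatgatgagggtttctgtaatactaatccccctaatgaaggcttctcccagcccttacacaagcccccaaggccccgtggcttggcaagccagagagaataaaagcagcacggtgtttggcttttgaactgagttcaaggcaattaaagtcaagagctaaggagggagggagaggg
The 3 MITF windows hold neither CATGTG nor the related CACGTG, which occurs in 7.26% of all windows. Such matches describe the letters only and show no binding.

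In HG, GPNMB was higher and SOX9 and PMEL were lower, while no other gene of the 10 passed an adjusted p under 0.05. These were 3 of the 8 tested genes, against 15.4% of all tested rows, 1 higher (background 7.62%) and 2 lower (7.8%). The study names a fold change above 1.5 and a p under 0.05 without saying whether p was adjusted. Taken with an unadjusted p, these limits were met by PMEL and BEST1, beside 5.17% of all rows. The number of the genes that met them was 0 with limma on log2(FPKM + 1), which shrinks differences near 1 FPKM, as for PMEL. It was 1 with limma on log2(FPKM + 0.1) and 1 without MG1 and MG4. Without MG2 and HG_1, 6 of the 8 passed, because MITF, OTX2 and BEST1 were added, and 4035 of 14899 rows (27.1%) were called in place of 2303. The 5 HG libraries did not overlap the 5 MG libraries in CPM for 4 genes, GPNMB, SOX9, PMEL and OTX2, against 13.6% of all tested rows.

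Among the regulators, SOX9 (ENSG00000125398, chromosome 17, 72121020 to 72126420, plus strand, GRCh38 in GENCODE release 29) had the clearest difference. SOX9 levels were 36.7, 29.6, 34.7, 33.1 and 34.5 FPKM in MG1 to MG5 and 23.0, 27.6, 27.4, 27.0 and 29.2 FPKM in HG_1 to HG_5. Every HG library thus lay below every MG library, and MG2 and HG_1 were the lowest of their groups. SOX9 fell by 21.1% in HG, a log2 fold change of -0.34 with an SE of 0.0632 and an adjusted p = 0.00448 (edgeR, quasi-likelihood, Benjamini-Hochberg over all tested rows). Without MG2 and HG_1, SOX9 had a log2 fold change of -0.34 and an adjusted p = 0.000593 from the same edgeR test. The antisense gene SOX9-AS1 covers the whole locus on the other strand and has no row in the table, but none of the 3836 windows of 100 bases of the longest coding SOX9 transcript occurs in transcripts of another gene.

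The difference of the other 3 regulators was smaller. MITF (chromosome 3, 69739435 to 69968337, plus strand) was at 12.8, 9.91, 11.2, 11.3 and 11.6 FPKM in MG1 to MG5 and at 8.46, 10.5, 9.50, 10.4 and 11.3 FPKM in HG_1 to HG_5. Its groups overlapped, with MG2 the lowest MG library and HG_1 the lowest HG library, and the log2 fold change of -0.20 (SE 0.0757) had an adjusted p = 0.102 from edgeR. Without these 2 libraries it was -0.19 with an adjusted p = 0.0341 from edgeR, so the call rests on leaving them out. Counts per gene do not separate the isoforms of MITF, of which GENCODE lists 18 transcripts.

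OTX2, on chromosome 14 with no overlapping gene, was at 36.3, 32.2, 33.8, 31.5 and 35.9 FPKM in MG1 to MG5 and at 29.8, 31.4, 30.9, 33.7 and 32.1 FPKM in HG_1 to HG_5. On the CPM scale the groups did not overlap (92.5 to 102.3 in MG, 87.0 to 90.3 in HG), whereas on the FPKM scale they did. The implied length of OTX2 was 2.65 kb in HG_4, the HG library with the highest FPKM, and 2.82 to 2.93 kb in the other HG libraries. In MG it reached from 2.64 kb in MG5 to 2.94 kb in MG4, the MG library with the lowest FPKM. HG_5, at 2.84 kb, also lay above MG4 in FPKM. The log2 fold change was -0.12 (SE 0.0403, adjusted p = 0.0814 from edgeR), and without MG2 and HG_1 the adjusted p was 0.0449. The 3 genes whose log2 CPM was most like that of OTX2 over the 10 libraries, among 13538 rows with a mean of at least 1 CPM, were SLC6A6, ALDH1A3 and ARID5B (Pearson r of 0.97, 0.97 and 0.96). Their log2 fold changes were -0.37, -0.46 and -0.36, so this likeness includes the difference between the groups.

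PAX6 was between 21.6 and 26.9 FPKM in MG and between 22.6 and 28.9 FPKM in HG, with overlapping groups. Its log2 fold change of 0.09 (SE 0.0682) had an adjusted p = 0.433 from edgeR, and without MG2 and HG_1 PAX6 was at 0.10 (adjusted p = 0.270 from edgeR). The gene overlaps ELP4 on the other strand, so the strand setting of the counting may bear on PAX6. ELP4 transcripts hold 71.4% of the stretches of 100 bases in the longest coding PAX6 transcript, which has 7290 bases. The implied length of PAX6 was only 2.65 to 2.82 kb, and the part of its counts that lies in shared bases was not tested. ELP4 was at 6.07 ± 0.395 FPKM in MG and 6.23 ± 0.703 FPKM in HG (SD, n = 5 each), adjusted p = 0.384 from edgeR.

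Of the 16 genes of RPE fate and MITF relatives, 12 were tested, and 1 was lower and 0 higher, with a median log2 fold change of -0.03 against 0.0013 over all tested rows. A count of 1 in 12 is near the 7.8% of all tested rows called lower, and the median was 0.01 without HG_1. The gene that fell was NR2F1, a nuclear receptor of eye development, from 36.9 ± 3.07 to 27.5 ± 0.984 FPKM (log2 fold change -0.44, adjusted p = 0.000919 from edgeR). CTNNB1, the catenin of Wnt signalling, was the most abundant of the list at a mean of 69.9 FPKM, with a log2 fold change of -0.02. CRX and SIX6, regulators of photoreceptors and of the early eye, were at 0 counts in every library.

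SOX9 is best known as a driver of cartilage genes. Of 9 such genes, COL2A1, COL9A1, ACAN and HAPLN1 were at 0 in every library, and 4 were tested. COL11A1, the most abundant, fell from 94.5 ± 14.2 to 56.1 ± 7.74 FPKM (log2 fold change -0.76, adjusted p = 0.0013 from edgeR). The other 3, MATN1, SOX5 and SOX6, did not pass, at group means of 0.0772 to 0.221 FPKM. Differences small beside their SEs of 0.201 to 0.402 were not detectable at such levels. Thus 1 of 4 was lower, beside 7.8% of all tested rows. The list median over these 4 was -0.25, but -0.10 without HG_4, -0.11 without MG1 and MG4, -0.38 without MG2 and HG_1, -0.51 with at least 10 counts in every library and -0.03 with limma on log2(FPKM + 1).

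**Figure D2:**
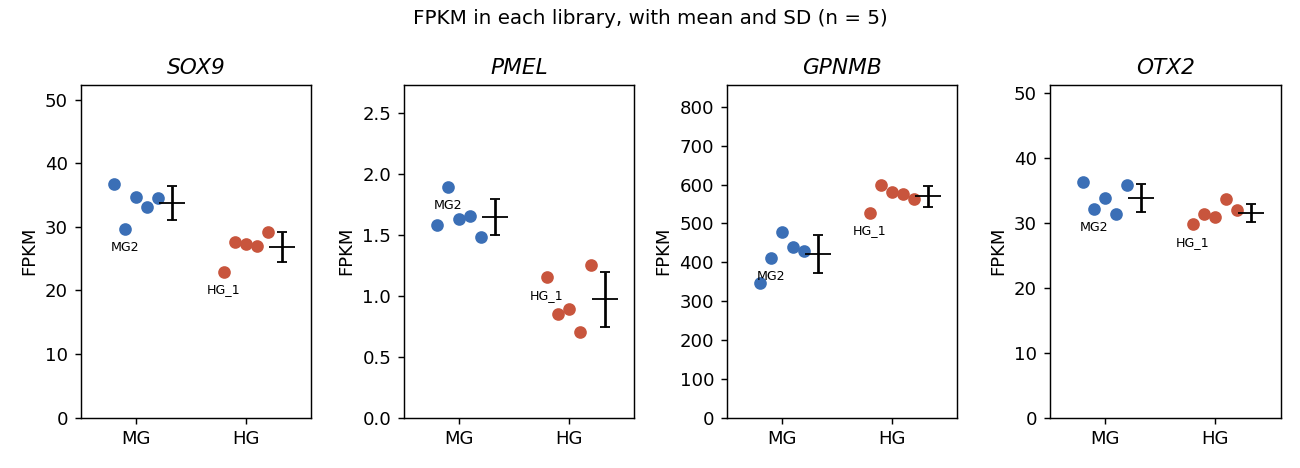
FPKM of SOX9, PMEL, GPNMB and OTX2 in each library (points), with the mean and SD of each group (n = 5) beside them and MG2 and HG_1 marked. SOX9 and PMEL lie lower and GPNMB higher in all 5 HG libraries, while OTX2 overlaps on this scale.

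PMEL, the fibril protein, was the only one of PMEL, TYR, TYRP1 and DCT that passed the test. PMEL was at 1.59, 1.89, 1.63, 1.65 and 1.49 FPKM in MG1 to MG5 and at 1.16, 0.851, 0.891, 0.704 and 1.25 FPKM in HG_1 to HG_5, from 113 to 194 and from 63 to 101 counts. All HG libraries lay below all MG libraries. It fell by 39.1% in HG, a log2 fold change of -0.72 (SE 0.149, adjusted p = 0.00854 from edgeR). The value was -0.71 without MG2 and HG_1. With limma it was -0.73 on log2(FPKM + 0.1) and -0.43 on log2(FPKM + 1), where the added 1 shrinks differences at this level. PMEL overlaps CDK2 on the other strand of chromosome 12, and CDK2 was also lower, from 17.0 ± 0.560 to 14.3 ± 1.11 FPKM (log2 fold change -0.25, adjusted p = 0.0101 from edgeR). None of the 2658 windows of 100 bases of the longest coding PMEL transcript occurs in transcripts of another gene on either strand.

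TYR did not pass the filter. It held 6, 4, 34, 6 and 8 counts in MG1 to MG5 and 0, 4, 4, 0 and 3 counts in HG_1 to HG_5, which puts MG3 far above the rest. At these counts a difference could not be tested with the filter, and a count of 0 allows up to 3 counts. In a fit with no filter the log2 fold change of TYR was -2.30 (SE 0.915, adjusted p = 0.148 from edgeR), and with DESeq2 -2.37 (adjusted p = 0.0683). Of the 100-base windows of TYR, 2.22% also lie in the related pseudogene TYRL, which has no row in the table.

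DCT held 0, 3, 0, 5 and 17 counts in MG1 to MG5 and 0, 0, 4, 0 and 2 counts in HG_1 to HG_5, of which MG5 holds the largest. DCT did not pass the filter, and in a fit without it the log2 fold change was -1.88 (SE 1.31, adjusted p = 0.430 from edgeR). TGDS, its neighbour, was at 6.50 ± 0.631 FPKM in MG and 6.57 ± 0.602 in HG (SD, n = 5 each).

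TYRP1 was tested at between 42 and 78 counts in MG and between 36 and 73 counts in HG. Its level was 0.491 ± 0.0650 FPKM in MG and 0.502 ± 0.144 FPKM in HG (SD, n = 5 each), and the log2 fold change of -0.01 (SE 0.196) had an adjusted p = 0.983 from edgeR. The groups overlapped, and differences small beside this SE were not detectable at such counts. The direction turned with limma on FPKM and without MG3, HG_2 or HG_5 (0.10, 0.03 and 0.07), never past the threshold, and TYRP1 was at -0.13 without MG2 and HG_1.

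GPNMB, a glycoprotein related to PMEL and found on melanosomes and lysosomes, moved the other way. GPNMB was at 346.2, 411.3, 478.6, 440.5 and 428.6 FPKM in MG1 to MG5 and at 528.0, 599.2, 581.4, 575.4 and 563.9 FPKM in HG_1 to HG_5, so that the lowest HG library was above the highest MG library. It rose by 33.6% in HG, a log2 fold change of 0.42 (SE 0.0727, adjusted p = 0.00318 from edgeR), and by 0.43 without MG2 and HG_1. Without MG1, the lowest MG library, it was 0.36. GPNMB has no overlapping gene on chromosome 7, and its neighbour MALSU1 was at 14.3 ± 1.23 FPKM in MG and 13.0 ± 0.477 FPKM in HG.

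The genes most like GPNMB over the 10 libraries in log2 CPM, among the same 13538 rows, were TPP1 (Pearson r of 0.995), INSIG1 (0.984) and ASAH1 (0.983). TPP1 and ASAH1 code for lysosomal enzymes and INSIG1 for a regulator of sterol synthesis. The 10 libraries share the group difference, so such a likeness includes it.

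Other melanosome genes were read from lists. Of 10 membrane and pigment genes, 6 were tested and 3 were higher (7.62% of all tested rows), with 0 lower (7.8% of all). Their median log2 fold change was 0.41, and 0.32 without MG1 and MG4. SLC45A2, a transporter of melanosomes, rose from 1.75 ± 0.488 to 3.83 ± 0.809 FPKM (log2 fold change 1.10, adjusted p = 0.00218 from edgeR). GPR143, the ocular albinism receptor, rose from 47.6 ± 6.98 to 67.6 ± 6.17 FPKM (0.50, adjusted p = 0.0122 from edgeR), and SLC7A11, the cystine transporter, from 2.78 to 4.17 FPKM (0.57, adjusted p = 0.00993 from edgeR). CD63, the most abundant of the list at a mean of 726.1 FPKM, had a log2 fold change of 0.31 that did not pass (adjusted p = 0.0785 from edgeR). TRPM1 was at 0 in every library, and OCA2 at 0 or 2 counts.

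The cargo sorting genes, which deliver proteins to the forming melanosome and also serve lysosomes, numbered 22 tested, of which 4 were higher and 0 lower, beside 7.62% and 7.8% of all tested rows, with a median log2 fold change of 0.13. BLOC1S2 rose by 0.38, HPS3 by 0.28, AP3M1 by 0.27 and BACE2, which cleaves PMEL, by 0.20 on the log2 scale. RAB32 was the most abundant at a mean of 176.3 FPKM. Of 7 tested genes of melanosome movement, RAB27B (0.58) and the melanophilin gene MLPH (0.54) were higher, and the myosin gene MYO7A was lower (-0.69), beside the same shares of all rows and with a median of 0.26. RAB27A, the most abundant of these at a mean of 18.7 FPKM, did not pass.

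**Figure D3:**
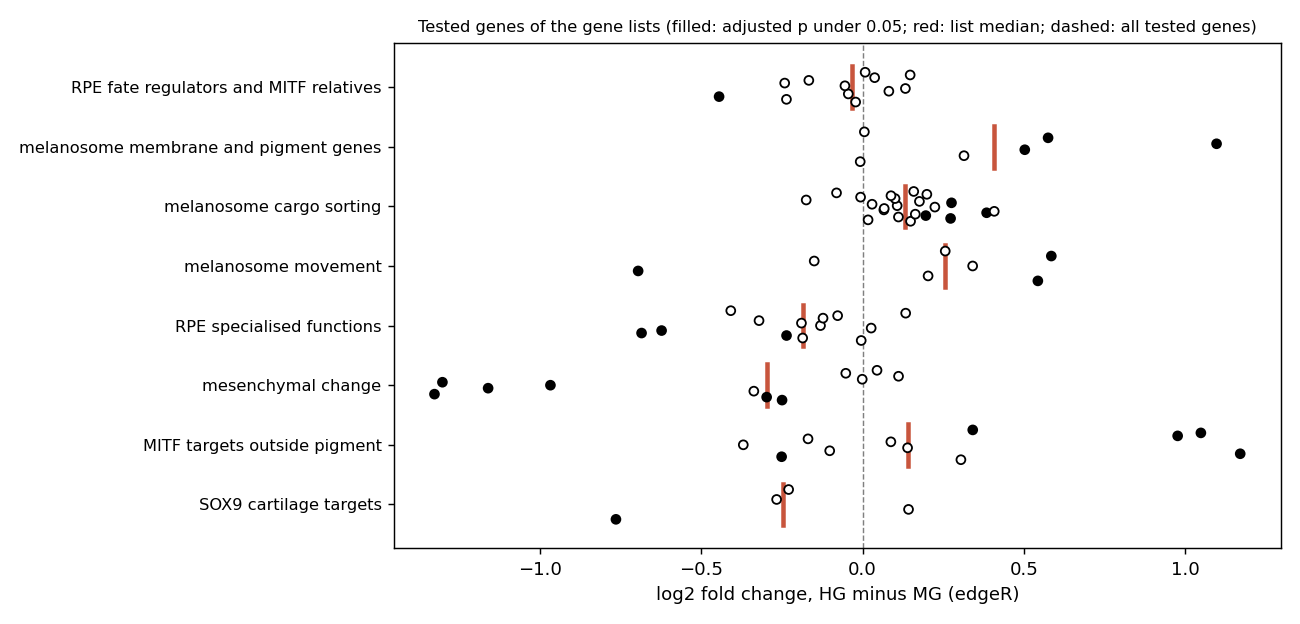
Log2 fold change (x axis, HG minus MG, edgeR) of the tested genes of 8 gene lists, with filled points for an adjusted p under 0.05, a red bar for the list median and a dashed line at the median of all tested rows. The melanosome membrane genes have a median of 0.41 and the mesenchymal list of -0.30.

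Genes that MITF is known to act on outside pigment also differed in direction. Of 11 tested, 4 were higher and 1 lower, where all tested rows gave 7.62% and 7.8%, with a median of 0.14 that was 0.09 without MG1. CTSK, a lysosomal protease, rose from 143.3 ± 25.9 to 327.2 ± 17.0 FPKM (log2 fold change 1.17, adjusted p = 0.00019 from edgeR), RRAGD, a GTPase of nutrient sensing, from 8.23 to 17.2 FPKM (adjusted p = 0.000257 from edgeR) and PPARGC1A, a mitochondrial coactivator, from 3.65 to 7.29 FPKM (0.98). SQSTM1, the most abundant at 340.3 FPKM, had a log2 fold change of 0.34, while CDK2 was the 1 that was lower.

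Of 13 tested genes of RPE specialised functions, 3 were lower and 0 higher (7.8% and 7.62% of all tested rows), with a median of -0.19 that was -0.08 without MG5, -0.12 without HG_3 and -0.07 with limma on log2(FPKM + 1). These were KRT8 (954.1 ± 81.4 to 611.3 ± 72.5 FPKM, log2 fold change -0.62), KRT18 (-0.68) and EZR (-0.24), while RGR and TTR were at 0 in every library. The other 10 tested genes did not pass, among them RLBP1 and RDH5 (adjusted p = 0.13 and 0.35 from edgeR). MERTK and SLC16A8, also among them, held at most 36 and 41 counts in a library. Of 11 tested genes of mesenchymal change, 6 were lower, against 7.8% of all tested rows, and 0 higher, with a median of -0.30. The largest differences were those of COL1A1 (-1.33), TAGLN (-1.30), S100A4 (-1.16) and SNAI1 (-0.97), and VIM, the most abundant at a mean of 2882 FPKM, did not pass.

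Some markers of other cell types also differed between the groups. The 6 macrophage markers summed to between 30.9 and 44.6 FPKM in MG and between 56.6 and 76.1 FPKM in HG, nearly all of it CD68, a lysosomal protein that rose from 38.0 ± 5.43 to 62.1 ± 7.65 FPKM (log2 fold change 0.70, adjusted p = 0.00311 from edgeR), while AIF1 and CD163 were at 0 counts in every library. CSF1R, the other macrophage marker tested, was at 1.58 ± 0.179 FPKM in MG and 1.18 ± 0.150 FPKM in HG (log2 fold change -0.43, adjusted p = 0.0502 from edgeR). The 5 fibroblast markers summed to between 8.24 and 11.1 FPKM in MG and between 3.13 and 3.94 FPKM in HG, mostly COL1A1 (9.06 ± 1.20 and 3.43 ± 0.340 FPKM), with LUM at 0. The 7 melanocyte markers summed to between 2.32 and 2.83 FPKM in MG and between 2.97 and 4.31 FPKM in HG, mostly MC1R (log2 fold change 0.58, adjusted p = 0.00863 from edgeR). The 8 photoreceptor and neural retina markers, led by PDE6B, overlapped between the groups (4.86 to 7.78 and 5.86 to 8.18 FPKM), and CRX and GNAT1 were at 0. The 4 endothelial markers summed to at most 0.256 FPKM, with CDH5 at 0. Fewer cells of a type and less RNA per cell cannot be told apart in such libraries, and the part of these markers in the results was not tested.

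**Figure D4:**
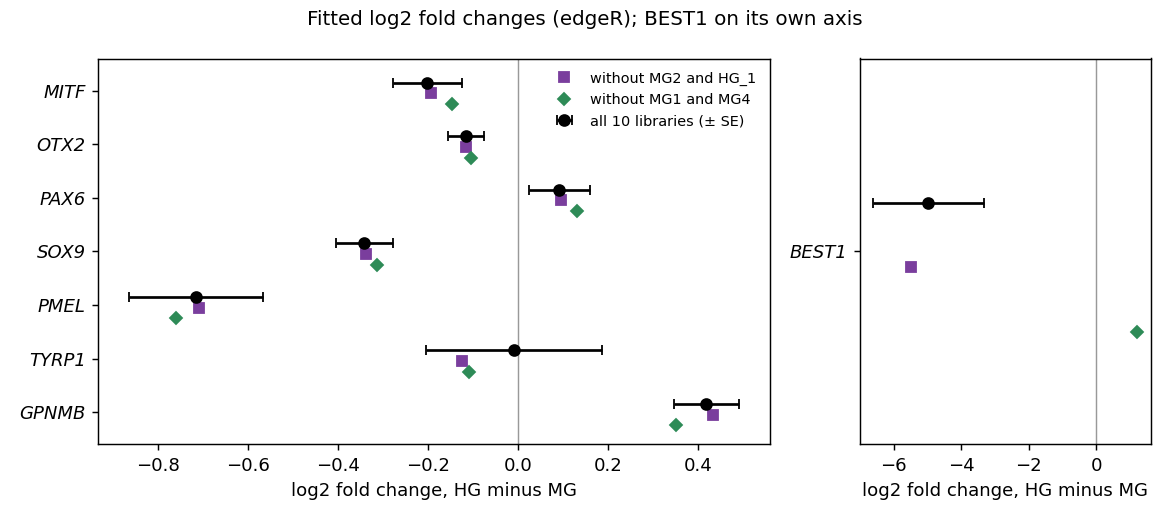
Log2 fold change, HG minus MG, of the 8 tested genes with the SE (black, edgeR, all 10 libraries), without MG2 and HG_1 (purple squares) and without MG1 and MG4 (green diamonds). BEST1 has its own axis and is the only one of the 8 whose sign changes among these 3 fits, from -4.97 to 1.22.

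BEST1 (ENSG00000167995, chromosome 11, 61949821 to 61965515, plus strand), the calcium-activated chloride channel of the RPE, gave the largest fold change and the least certain. Its counts were 8707, 42, 24, 18223 and 234 in MG1 to MG5 and 300, 255, 44, 191 and 184 in HG_1 to HG_5. MG1 and MG4 stood apart at 57.2 and 120.3 FPKM, while the other 8 libraries lay between 0.237 and 1.63 FPKM. The log2 fold change was -4.97 (SE 1.64, adjusted p = 0.0670 from edgeR), and without MG1 and MG4 it turned to 1.22 (adjusted p = 0.459 from edgeR). Leaving out MG2 or MG3 gave an adjusted p of 0.0342 or 0.0424 from edgeR, and the log2 fold change without MG4 alone was -3.68. DESeq2 gave -4.96 (adjusted p = 0.00434), and edgeR with at least 10 counts in every library gave -4.97 (adjusted p = 0.0483). With limma on log2(FPKM + 1) and log2(FPKM + 0.1) the difference of BEST1 was -1.85 and -1.86 (adjusted p = 0.394 and 0.528). The ratio of its highest to its median CPM was 96.7, a ratio that 3 of the 14936 tested rows reached, BEST1 included, against a median of 1.22 over all rows.

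The gene shares 5798 bases with FTH1, the ferritin heavy chain gene on the other strand, which was at 6195 ± 835.2 FPKM in MG and 6793 ± 830.6 FPKM in HG and ranks 2 by mean FPKM. Of the 8 BEST1 transcripts in GENCODE release 29, 5 hold bases in FTH1 exons, with 1267 of the 4267 bases of 1 of them and 213 of the 2740 bases of another. FTH1 was at 5584 and 5530 FPKM in MG1 and MG4, the 2 lowest of the 10 libraries. The count divided by FPKM and by total counts, which gives a length in kb, was 2.45 and 2.44 in MG2 and MG3 and 2.51 in HG_3, the 3 libraries with the fewest BEST1 counts. In the other 7 it was between 4.25 and 4.63 kb, and which BEST1 product the deposited FPKM used was not tested. Neither the counting program nor its strand setting is given in the sources used here, so reads from bases shared by the 2 genes cannot be told apart. The source of the BEST1 counts in MG1 and MG4 was not tested. RAB3IL1, on the other side of BEST1, was at 2.52 ± 0.394 FPKM in MG and 3.82 ± 0.341 FPKM in HG (log2 fold change 0.59, adjusted p = 0.0108 from edgeR).

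**Figure D5:**
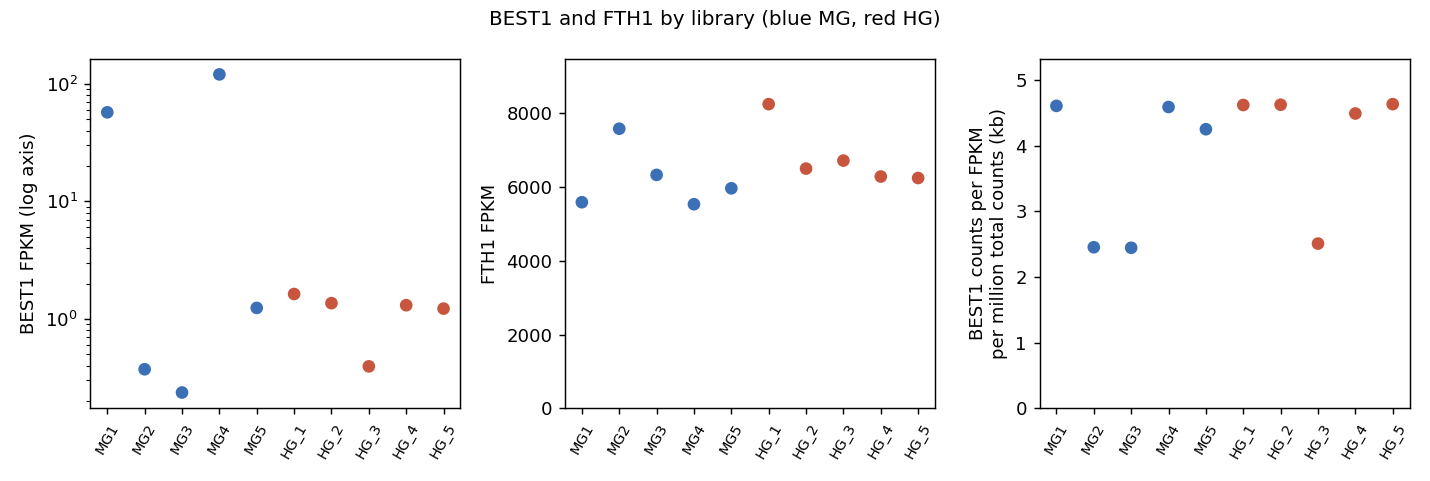
BEST1 FPKM on a log axis, FTH1 FPKM, and the BEST1 length in kb implied by counts and FPKM, for each library (blue MG, red HG). BEST1 is high in MG1 and MG4 only, where FTH1 is lowest, and the implied length is 2.44 to 2.51 kb in MG2, MG3 and HG_3 and 4.25 to 4.63 kb in the others.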

How the data were processed

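Cells were ARPE-19, 5 MG and 5 HG samples, sequenced as RNA libraries. The authors deposited whole-number read counts per gene, not normalized, and a table of FPKM, in which the authors scaled the reads of each gene by its length and the size of the library. Per the labels, the reads were processed with fastp 0.20.1 and HISAT2 2.2.1 on GRCh38; the counting program, annotation and strand setting are not given in the sources used here. The counts were compared with R 4.3.3 and edgeR 4.0.16: default filter on low counts, TMM normalization, quasi-likelihood test and Benjamini-Hochberg adjustment over all 14936 rows, called at an adjusted p under 0.05. Standard errors are the absolute log2 fold change divided by the root of the F statistic. Log2 CPM used a prior count of 2. The 20 pairs of libraries within a group differed by a chi-square per gene of 13.8 to 78.5, above sampling noise, and each was counted as 1 replicate. Means and SDs are of the deposited FPKM. Floors are 3 counts, from 0.0669 to 0.0912 CPM per library, and cover counting error only.

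The members and lists were chosen with earlier results of these data known. Named are the 10 genes and, of each list, up to 4 genes past the threshold with the largest absolute change and the gene with the highest mean FPKM, the neighbours in the table, TXNIP and ARRDC4, and the 3 genes most like the 2 most abundant tested members. Any other gene named, as for markers at 0, was named after its values were seen. Alternatives were DESeq2 1.42.0, RLE size factors, no TMM, no filter on low counts, at least 10 counts in every library, limma 3.58.1 on log2(FPKM + 1) and log2(FPKM + 0.1), and each library or the pair MG2 and HG_1 left out. Alternatives added after seeing the data were those without MG1 and MG4 and without the MSTRG loci (assembled loci with no Ensembl identifier). The steps were tested on simulated counts. Positions and transcripts come from GENCODE release 29 on GRCh38.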

Additional observations from a re-analysis of the deposited data

Results flagged for a closer look

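Of 38 groups of 5 values (FPKM of the 10 genes, their neighbours and the label checks, and the total counts), 4 had 1 library set well off the remaining ones, and chance alone would give about 1.9. TYR in MG3 was at 0.365 FPKM against 0.0347 to 0.0790 in the other MG libraries. FTH1 in HG_1 was at 8240 FPKM against 6240 to 6711 in the other HG libraries. MALSU1 in MG2 was at 16.5 FPKM against 13.7 to 13.8. ELP4 in MG1 was at 6.75 FPKM against 5.77 to 6.01, but in CPM it was at 43.6 against 37.6 to 46.0 in the other MG libraries. The BEST1 values of MG1 and MG4 did not meet this rule, because they are 2 libraries of 5 and neither stands alone.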

How the results depend on the processing

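GPNMB, SOX9 and PMEL kept their direction and an adjusted p under 0.05 under all 20 alternatives run. Leaving out 1 library at a time gave 1648 to 2993 genes called in all (10.9% to 19.9% of those tested). Of these, 798 to 1469 were higher and 850 to 1524 lower (5.64% to 10.1% of those tested). These fits called 3 to 4 of the 8 tested members, of which 2 to 3 were lower and 1 higher. Without MG2 and HG_1 the counts were 4035 (27.1%), 1984 and 2051 (13.8%), with 6 members called, 5 of them lower. Without MG1 and MG4 they were 1079, 509 and 570. DESeq2 called 5 of the 9 members to which it gave an adjusted p (none for DCT), 4 of them lower, beside 3147 of 15720 genes, 1617 of them lower. Past the limits of the study, with an unadjusted p, were 2 members beside 772 of 14936 genes. With limma on log2(FPKM + 1), which shrinks differences near 1 FPKM, the number was 0 beside 303. With log2(FPKM + 0.1) the number was 1 beside 711. Without MG1 and MG4 it was 1 beside 728 of 15271 genes, with no filter 3 beside 1003 of 18514 and with DESeq2 3 beside 912 of 17162, TYR being tested in the last 2. BEST1 passed with DESeq2 (adjusted p = 0.00434), with at least 10 counts in every library (0.0483), without MG2 (0.0342), without MG3 (0.0424), without MG2 and HG_1 (0.0401) and without MSTRG loci (0.0487). Its log2 fold change was 1.22 without MG1 and MG4, and -5.29 to -3.68 with 1 library left out; without MG4 it was -3.68. With limma on log2(FPKM + 1) and log2(FPKM + 0.1) BEST1 was at -1.85 and -1.86 and did not pass (0.394 and 0.528). OTX2 passed with DESeq2 (0.0166). TYRP1 had a log2 fold change of 0.0069 and 0.0024 with limma on log2(FPKM + 1) and log2(FPKM + 0.1), and -0.13 to 0.10 with 1 library left out, never past the threshold.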
